A study of Mus musculus with 4 samples.

Results

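The core circadian clock loop was followed in abdominal aorta through 10 genes: Arntl (also called Bmal1), Clock, Npas2, Per1, Per2, Per3, Cry1, Cry2, Nr1d1 and Nr1d2. All non-control probes carrying one of these names were taken, which gave 24 probes among 56605 probes and 10 genes among 37074 gene names. The 10 genes are the textbook members of the loop, and they were chosen by function with the differences between the groups on these arrays already in view, that of Arntl among them. Because the group means of these same signals were known, those differences are given below as a description, with no test. Arrays K4 and K5 held abdominal aorta labelled SR-A1-/-, and arrays W2 and W3 held abdominal aorta labelled wild type. All came from male mice of 12 weeks, 4 weeks after the vessel was exposed to calcium phosphate (CaPO4), so the injury is shared by both groups and no uninjured aorta was analysed here. SR-A1 is the class A scavenger receptor of macrophages, encoded by Msr1. Neither the knockout allele, nor the time of day at which tissue was collected, nor whether an array held 1 animal or a pool is given in the sources used here, and the spread between arrays of a group may therefore be technical.

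The clock of mammalian cells is a transcriptional feedback loop. BMAL1, the product of Arntl, pairs with CLOCK or with its relative NPAS2 and activates genes through E-boxes, among them the Per, Cry and Nr1d genes. PER and CRY proteins return to block the activators, and REV-ERB alpha and beta, the products of Nr1d1 and Nr1d2, repress Arntl and Npas2 through ROR elements. In mouse tissues Arntl and Npas2 messages therefore cycle roughly in antiphase to those of the Per and Nr1d genes. In smooth muscle, endothelium and macrophages this loop is known to time part of the vessel's gene expression over the day.

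Signals are given as log2 of the processed signal minus the array's 75th percentile, differences are SR-A1-/- minus wild type, and standard errors come from limma with 2 arrays in each group. A level of 0 is the 75th percentile of the array, and levels of different probes are not comparable. Array brightness, as the 75th percentile, was 245 and 133 on K4 and K5 and 132 and 220 on W2 and W3, so signal level crossed the groups. Msr1, the gene named by the knockout label, was well above background on K4, K5 and W3 at both of its probes, with -1.26 and -2.09 on K4 and K5 and -5.30 and -2.10 on W2 and W3 at base 3231, and -1.50 and -1.38 on K4 and K5 and -6.40 and -2.12 on W2 and W3 at base 624. It thus went against the labels, and every direction given here refers to the arrays as labelled SR-A1-/- and wild type. A probe outside the deleted part of the gene would not check the genotype, and no label names the allele.

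Of the 24 probes, 22 passed the detection filter (well above background on 2 or more arrays), and each gene is represented by its brightest such probe. The probes of Arntl, whose difference was the widest among the 10 genes, and the single probe of Nr1d1, the gene that differed most between the wild-type arrays, are shown 5′ to 3′ as the sequences that carried these readings.
Arntl, probe at transcript base 1027: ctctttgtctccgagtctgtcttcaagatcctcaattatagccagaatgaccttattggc
Arntl, probe at transcript base 1262: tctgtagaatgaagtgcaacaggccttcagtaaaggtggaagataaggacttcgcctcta
Arntl, probe at transcript base 2245: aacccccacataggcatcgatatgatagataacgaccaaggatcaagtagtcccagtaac
Nr1d1, probe at transcript base 2054: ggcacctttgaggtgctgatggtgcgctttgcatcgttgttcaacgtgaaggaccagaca
On mm9 these probes lie at chr7:120435023-120436706, chr7:120439030-120439089 and chr7:120456978-120457037 on the plus strand and at chr11:98630526-98631028 on the minus strand. The first Arntl probe and the Nr1d1 probe span 1684 and 503 bases of the genome with 60 bases of sequence, so each crosses an intron. The other 2 Arntl probes are contiguous in the genome.

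The activating arm was low on both arrays labelled SR-A1-/-, and part of the repressing arm was high. Arntl, Clock and Npas2 were all lower on K4 and K5 than on W2 and W3. Per2, Per3, Cry2 (in 1 of its 3 probes) and Nr1d2 were all higher, and Per1, Cry1 and Nr1d1 overlapped between the groups. The groups were thus apart in 7 of the 10 genes (4 higher, 3 lower), beside 29.8% of the 22497 genes tested (16.1% higher, 13.7% lower). Of these, 5 were also 2-fold or more apart (3 higher, 2 lower), beside 6.4% of all genes (3.96% higher, 2.44% lower). In bulk tissue, fewer cells of a type and less RNA per cell cannot be told apart. Nothing is read from these shares, since the same contrast was known when the genes were chosen. In limma over all genes, 0 of the 10 and 0% of the 22497 genes passed an adjusted p of 0.05 with Benjamini-Hochberg adjustment, and 1416 genes (6.29%) had an unadjusted p under 0.05. With 2 arrays against 2, an exact permutation test of 1 gene cannot go below p = 0.333.

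**Figure D1:**
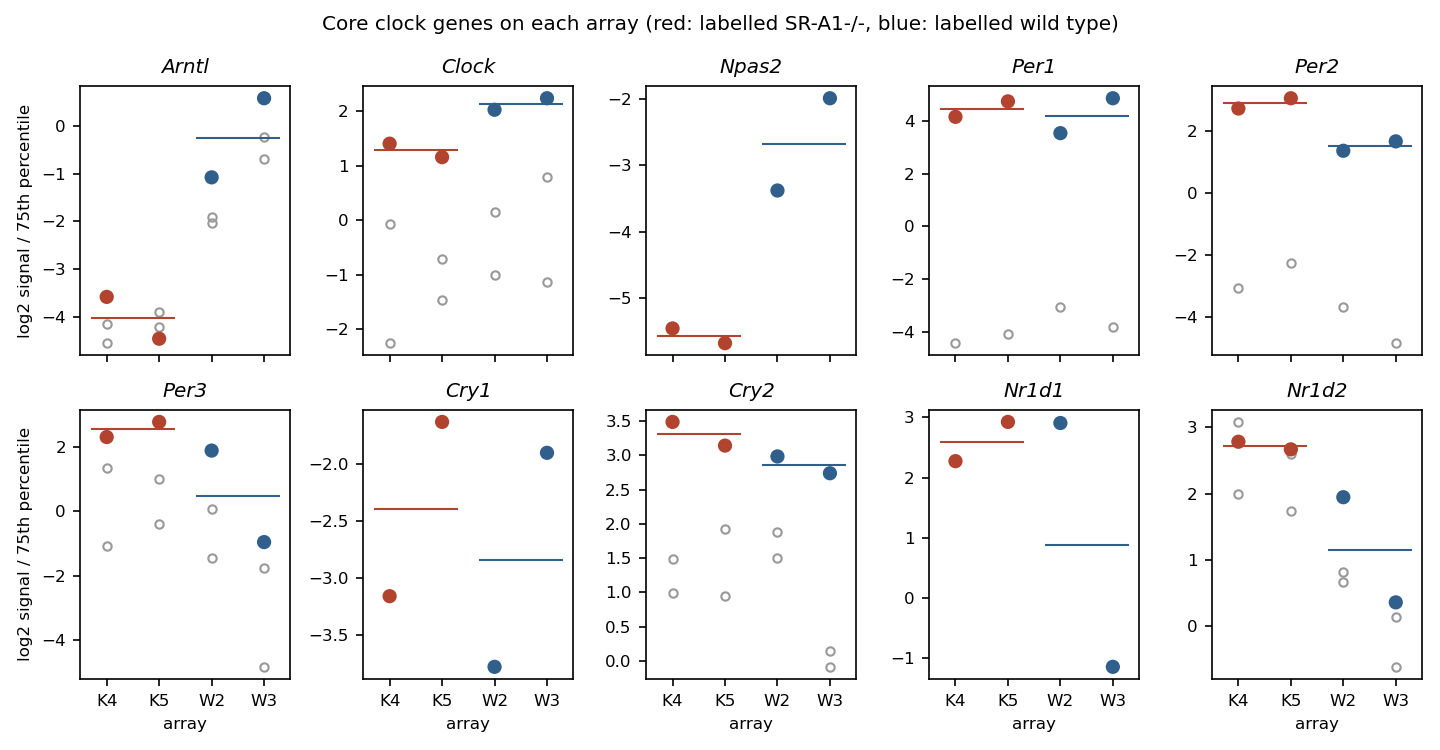
Log2 signal relative to the array's 75th percentile (vertical axis) of the 10 core clock genes on arrays K4 and K5 (red, labelled SR-A1-/-) and W2 and W3 (blue, labelled wild type). Filled points are the brightest probe of the gene, bars are group means and open grey points are its other tested probes; Arntl, Clock and Npas2 are low in red, Nr1d1 and Per3 are low on W3.

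Among the activators, Arntl, the partner without which the loop does not run, read -3.59 and -4.46 on K4 and K5 and -1.08 and 0.58 on W2 and W3. Both arrays labelled SR-A1-/- were below both wild-type arrays, and W3 was the highest of all. Its difference was -3.77 ± 0.66 (SE), a 13.7-fold lower mean signal. All 3 Arntl probes gave the same order of groups, with differences from -3.77 to -2.89. The probe that stands for the gene was not well above background on K5, and the probe at base 1027, above background on all 4 arrays, gave -2.89, or 7.43-fold. Normexp background correction, with an offset of 50 added to every signal, gave -1.63.

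Npas2, which can stand in for Clock as the partner of BMAL1, read -5.46 and -5.68 on K4 and K5 and -3.38 and -1.99 on W2 and W3. It was not well above background on either array labelled SR-A1-/- and above it on both wild-type arrays. With K4 and K5 raised to the lowest signal called above background on each, the mean of Npas2 was 4.23-fold lower on the arrays labelled SR-A1-/- (measured means -5.57 and -2.68). This fold is no lower bound over other processing, since with normexp correction the log2 difference was -0.60. Clock, the constitutive partner, read 1.41 and 1.16 on K4 and K5 and 2.03 and 2.24 on W2 and W3, a difference of -0.85 ± 0.29. The difference of Clock was small, and its 3 tested probes, at bases 1980, 7243 and 8628, all had the arrays labelled SR-A1-/- below the wild-type arrays.

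Among the Period genes, which encode the scaffold of the repressor complex, Per2 read 2.72 and 3.06 on K4 and K5 and 1.36 and 1.66 on W2 and W3. The arrays labelled SR-A1-/- lay above, and the wild-type arrays were close to each other, with a difference of 1.38 ± 0.31. A second Per2 probe, at base 1001, gave 1.60, and read -3.67 and -4.85 on W2 and W3. Per3 read 2.30 and 2.77 on K4 and K5 and 1.88 and -0.96 on W2 and W3, so that W2 was near the arrays labelled SR-A1-/- and W3 far below them. Its 3 probes gave differences of 2.01 to 2.40. Per1, which is also induced acutely by glucocorticoid and cAMP signals, read 4.15 and 4.73 on K4 and K5 and 3.53 and 4.85 on W2 and W3. The groups overlapped, and the second Per1 probe, at base 3405, gave -0.81 where the first gave 0.25, so no direction can be given for Per1.

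The cryptochromes, which carry the repression of BMAL1 and CLOCK, showed smaller differences. Cry2 read 3.48 and 3.14 on K4 and K5 and 2.98 and 2.74 on W2 and W3, a difference of 0.45 ± 0.30, and 2 of its 3 probes overlapped between the groups. Cry1 read -3.16 and -1.63 on K4 and K5 and -3.78 and -1.90 on W2 and W3. Its arrays interleaved, and the spread within either group was wider than the difference of 0.44 ± 0.82. The other Cry1 probe was not well above background on any of the 4 arrays.

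The REV-ERB genes, the repressors of Arntl, were both lower on W3 than on W2. Nr1d1 read 2.27 and 2.92 on K4 and K5 and 2.91 and -1.14 on W2 and W3. W2 lay between the arrays labelled SR-A1-/-, and W3 was 16.6-fold below W2. The difference was 1.72 ± 1.33, and without W3 it was -0.31. Nr1d2 read 2.78 and 2.67 on K4 and K5 and 1.94 and 0.36 on W2 and W3, a difference of 1.57 ± 0.57. Its 3 probes gave 1.57 to 2.36, each with the groups apart. Without W3 the difference of Nr1d2 was 0.78 at its brightest probe, and 1.20 and 2.02 at its other probes. That of Per3 was 0.65 at its brightest probe, and 0.71 and 1.08 at its other probes.

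The relation of activators to repressors was read array by array as the mean of each arm. Arntl, Clock and Npas2 together stood -1.03 and -1.48 from their 4-array mean on K4 and K5, and 0.71 and 1.80 from it on W2 and W3. Nr1d1 and Nr1d2 together stood 0.69 and 0.96 from theirs on K4 and K5, and 0.59 and -2.23 on W2 and W3. The Period genes stood at 0.39 and 0.85 on K4 and K5 and at -0.41 and -0.82 on W2 and W3, and the cryptochromes at -0.07 and 0.52 on K4 and K5 and -0.63 and 0.18 on W2 and W3. By these means activators were lowest and REV-ERB genes highest on K5, and activators were highest and REV-ERB genes lowest on W3. The order of K4 and K5 was not shared by all probes. The Arntl probes at bases 1027 and 1262 read higher on K5 than on K4, and Npas2 was not well above background on either. Nr1d2 read higher on K4 than on K5 at its 3 probes, so the REV-ERB order came from Nr1d1. On W2 the activators and the REV-ERB genes were both above their mean, the REV-ERB genes through Nr1d1. Nr1d2 stood at about its mean there at its brightest probe, and below it at its other probes. The mean of the activators minus the mean of all 7 repressors was -4.63 and -5.52 on K4 and K5 and -2.36 and -0.52 on W2 and W3, a difference of -3.63. Both arrays labelled SR-A1-/- lay below both wild-type arrays. The difference was -2.72 against W2 alone and -4.55 against W3 alone. These values include readings not well above background, of Npas2 on K4 and K5 and of Arntl on K5. With normexp background correction the difference of -3.63 became -1.96.

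**Figure D2:**
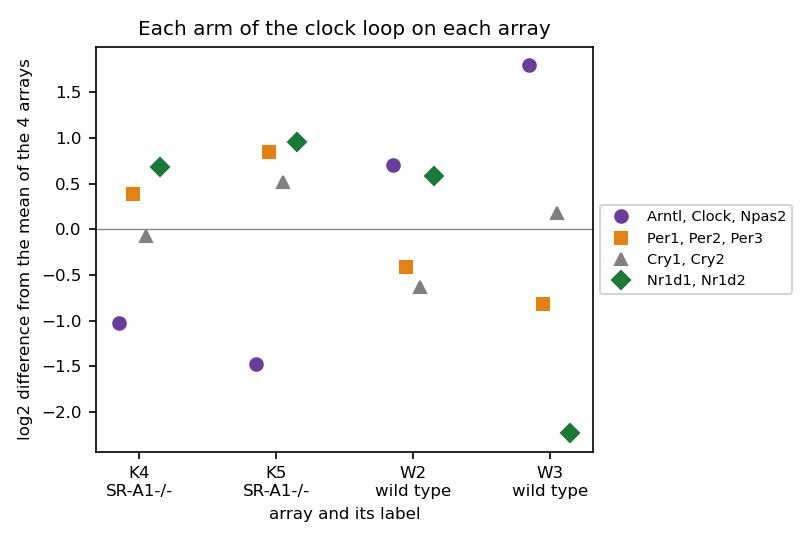
Mean log2 signal of each arm of the loop on each array, as the difference from that arm's mean over the 4 arrays (vertical axis); arrays K4 and K5 (labelled SR-A1-/-) stand left of W2 and W3 (labelled wild type). Activators (circles) and REV-ERB genes (diamonds) lie on opposite sides of 0 on K4, K5 and W3. They lie on the same side on W2, where the REV-ERB mean is raised by Nr1d1.

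The wild-type arrays differed from each other in the clock more than the arrays labelled SR-A1-/- did. These values describe single pairs of arrays and carry no test. The median absolute difference over the 10 genes was 0.41 between K4 and K5 and 1.49 between W2 and W3, beside 0.39 and 0.43 over all genes tested. At least 2-fold differences were found in 1 of 10 genes between K4 and K5 and in 7 of 10 between W2 and W3, beside 11.0% and 16.2% of all genes. Of those 7, W3 was above W2 in the activators Arntl (by 1.66) and Npas2 (by 1.39) and also in the repressors Cry1 (by 1.88) and Per1 (by 1.32), and below it in Nr1d1 (-4.05), Per3 (-2.84) and Nr1d2 (-1.59). The second Per1 probe went the other way, with -3.05 on W2 and -3.80 on W3. Clock, Per2 and Cry2 lay close together on the wild-type arrays, 0.21, 0.30 and 0.24 apart. Over the 10 genes the root mean square difference was 0.67 between K4 and K5, 1.23 between K4 and W2, 1.67 between K5 and W2, 1.93 between W2 and W3, 2.49 between K4 and W3 and 2.80 between K5 and W3. By this measure W2 was nearer to either array labelled SR-A1-/- than to W3, but Nr1d1 and Per3 weigh heavily in it. The median absolute difference was 0.63 between K4 and W2, 1.05 between K5 and W2 and 1.49 between W2 and W3. By gene the order was not shared. Arntl, Clock, Npas2 and Per2 put W2 nearer to W3 than to K4 or K5. Per1, Per3, Nr1d1 and Nr1d2 put it nearer to both K4 and K5, Cry1 to K4 only and Cry2 to K5 only. Over all 22497 genes the root mean square difference was 0.78 between K4 and K5, 0.87 between K4 and W2 and 0.80 between K5 and W2. It was 0.88 between W2 and W3, 0.74 between K4 and W3 and 1.02 between K5 and W3.

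**Figure D3:**
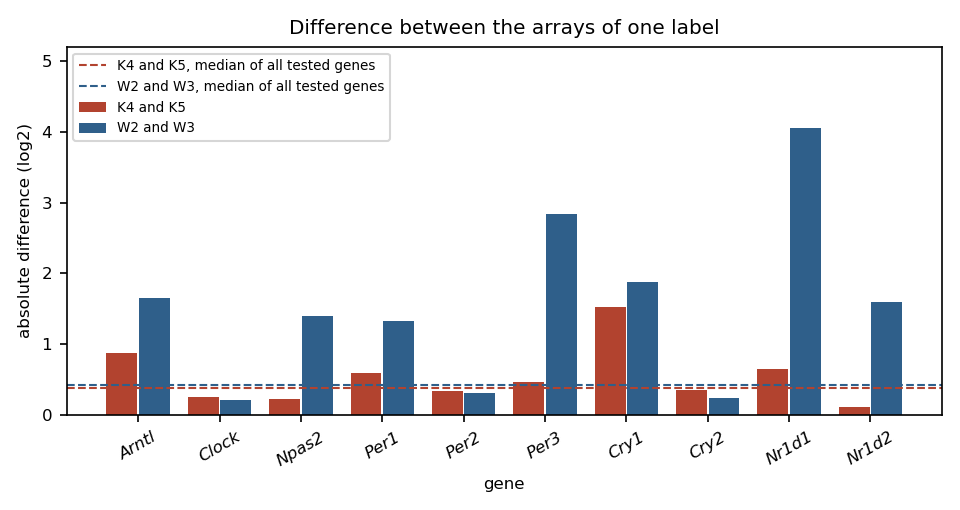
Absolute log2 difference between the arrays of one label for each core clock gene, K4 and K5 in red and W2 and W3 in blue, with dashed lines at the median of all tested genes. Nr1d1, Per3 and Cry1 differ most between W2 and W3, at 4.05, 2.84 and 1.88.

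**Figure D4:**
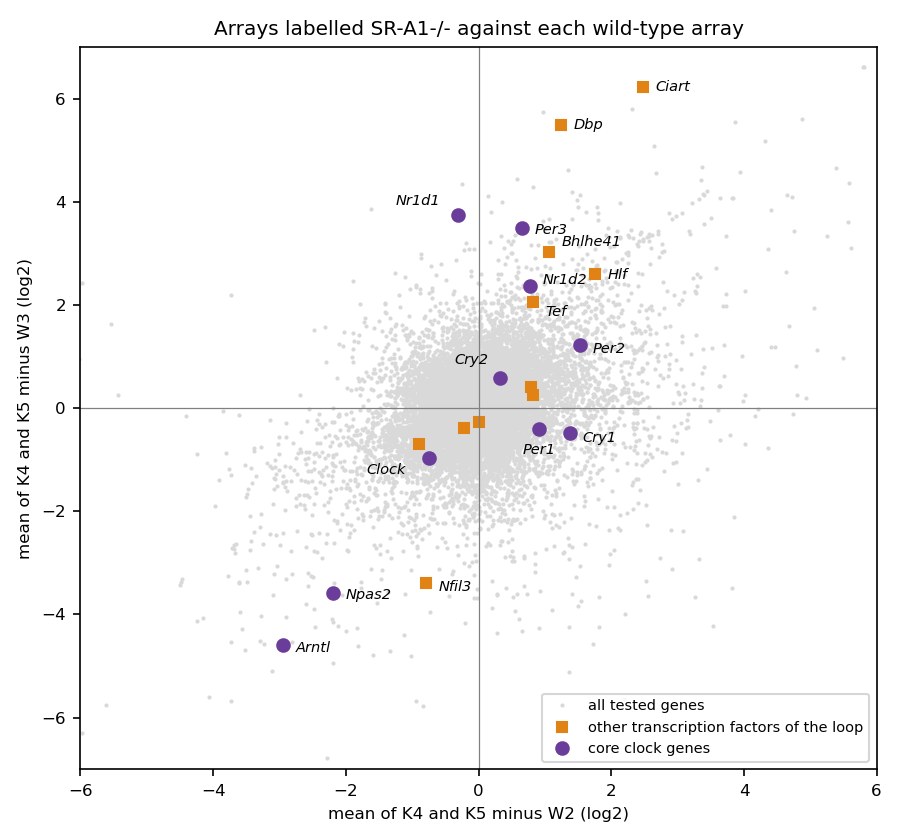
Mean of K4 and K5 minus W2 (horizontal axis, log2) and minus W3 (vertical axis, log2) for the core clock genes (circles), the other transcription factors of the loop (squares) and all tested genes (grey, 15 genes outside the range). Arntl and Npas2 lie far from 0 on both axes, whereas Nr1d1, Per3 and Dbp lie far from 0 mainly against W3.

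Other transcription factors that feed into the loop also differed in both directions, in a list of 12 genes. Of 11 tested, 7 were higher on both arrays labelled SR-A1-/-, 3 were lower on both and 1 overlapped, beside 16.1% higher and 13.7% lower over all genes. The median absolute difference was 1.44, beside 0.23 over all genes. None passed an adjusted p of 0.05 in limma. Ciart, an E-box repressor also called Chrono, read -1.14 and -0.69 on K4 and K5 and -3.39 and -7.14 on W2 and W3, with W3 not well above background. Its difference was 4.35 ± 1.23, or 3.27 with W3 raised to the lowest signal called above background, and it was 2.47 against W2 alone. Dbp, a D-box activator and direct E-box target, read 6.76 and 7.15 on K4 and K5 and 5.71 and 1.46 on W2 and W3, a difference of 3.37 ± 1.38, or 1.25 against W2 alone. Hlf, of the same family, read 1.13 and 1.37 on K4 and K5 and -0.51 and -1.34 on W2 and W3, a difference of 2.17 ± 0.39 that was 1.76 against W2 and 2.59 against W3. In each of these genes K4 and K5 were close together and W3 was the lowest array.

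Enzymes and corepressors that act on clock proteins were counted in the same way. Of 18 such genes, 0 were higher on both arrays labelled SR-A1-/-, 3 were lower on both and 15 overlapped, beside 16.1% higher and 13.7% lower over all genes. None of the 18 was 2-fold or more apart, beside 6.4% of all genes, a share at which a list of this length would hold few such genes. Their median absolute difference was 0.11, beside 0.23 over all genes. The members furthest from 0 with groups apart were Prkaa2, Csnk2a1 and Csnk1d. Prkaa2, a catalytic subunit of AMP kinase, stood at -0.56 ± 0.35, with the groups apart in 1 of its 2 probes. The casein kinase genes Csnk2a1 and Csnk1d stood at -0.29 ± 0.30 and -0.14 ± 0.27, apart in 2 of 3 and 1 of 4 probes. Of 12 clock-controlled genes, 5 were higher on both arrays labelled SR-A1-/-, 1 was lower on both and 6 overlapped, beside the same shares of 16.1% and 13.7% over all genes. Wee1, a cell-cycle kinase driven by the clock in liver, read -0.10 and 0.46 on K4 and K5 and -1.43 and -1.52 on W2 and W3. Its difference of 1.65 ± 0.33 was almost the same against either wild-type array (1.61 and 1.69). Fkbp5, a glucocorticoid-responsive chaperone, differed by 1.09 ± 0.32, and Cdkn1a, a cell-cycle inhibitor known to be repressed by REV-ERB, by -1.28 ± 0.44.

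**Figure D5:**
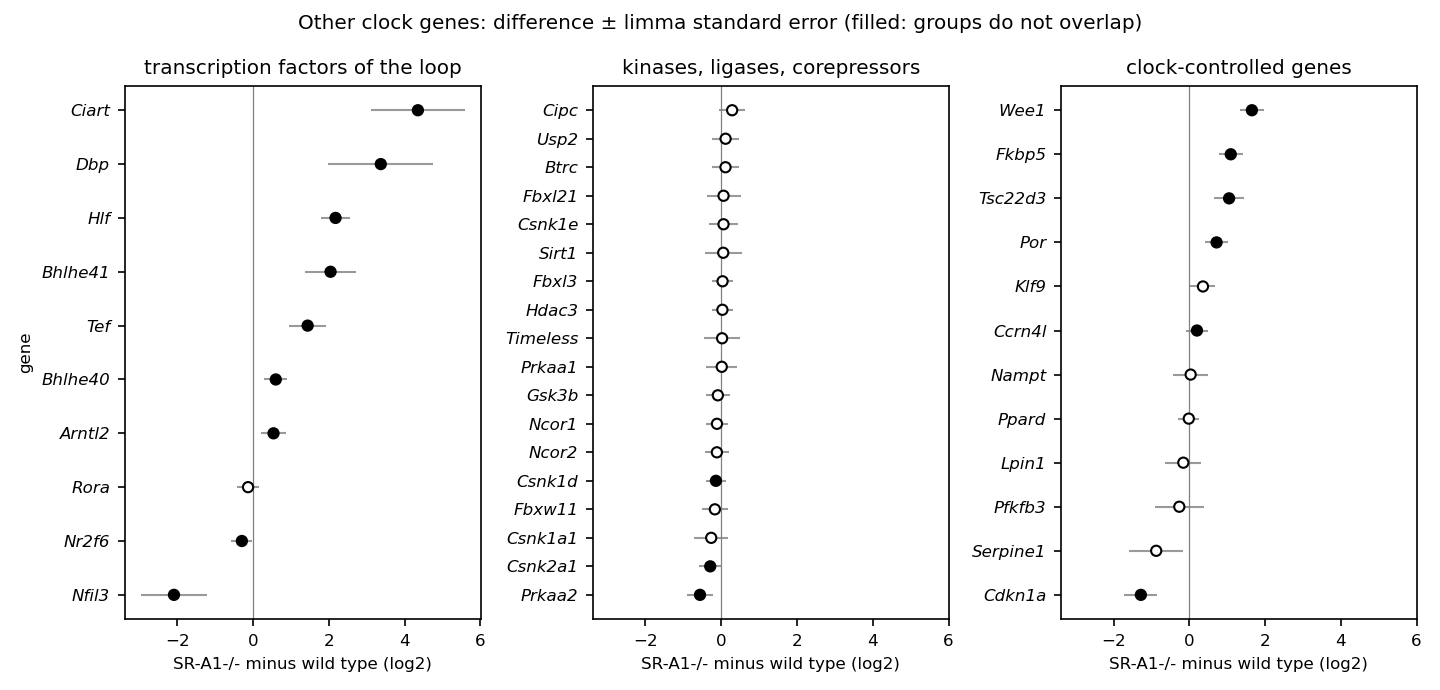
Log2 difference of SR-A1-/- minus wild-type arrays with its limma standard error for tested genes of 3 further clock lists (1 gene not shown), filled where the groups do not overlap. Ciart and Dbp lie furthest above 0 and Nfil3 furthest below it, while the 18 modifying enzymes and corepressors lie between -0.56 and 0.29.

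The genes whose profiles over the 4 arrays lay nearest to Arntl were ranked by the root mean square difference of centred log2 values among 21733 genes. Npas2 was the fourth nearest, at 0.51, after Slco1c1 (0.37), Thsd7b (0.40) and an unnamed region of chromosome X (0.50), and before Cyct (0.52). Ranked genes had to be above background on both arrays of a group, which Npas2 met only on the wild-type arrays. Of these 5, all but Slco1c1 were not well above background on either array labelled SR-A1-/-, and Arntl itself was not on K5. The rank of Npas2 thus rests in part on readings near the floor, and nothing is read from it. Nearest to the mirror image of Arntl were Olfr1031, 2010203P06Rik, Olfr1036, Pitx1 and 2810455O05Rik (0.28 to 0.44), each not well above background on both wild-type arrays, so that their profiles there have no measured order. In the mirrored ranking the 7 repressors of the core loop were spread widely, with Per3 at 122, Nr1d2 at 225, Nr1d1 at 407, Per2 at 500, Cry2 at 3176, Per1 at 12922 and Cry1 at 14455. Other transcription factors were spread as widely there, with Ciart at 71, Hlf at 93, Bhlhe41 at 105, Dbp at 121, Tef at 268, Bhlhe40 at 2726, Arntl2 at 3727, Rora at 14385, Nr2f6 at 16496 and Nfil3 at 21595. Nfil3, a D-box repressor, stood at 42 in the ranking of likeness. The measure depends on the size of the differences as well as on their order, and Clock, in the same arm as Arntl, stood at 680.

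Promoter windows of 250 bases before to 50 after the annotated start were found in RefSeq (GRCm38.p6) for 9 of the 10 genes, 13 windows in all. Windows of 5 members in which letters known from the loop occurred are shown, because E-boxes, D-boxes and ROR elements join the arms described above. Both strands were searched for the E-box CACGTG, its variant CACGTT, the D-boxes TTATGTAA and TTACGTAA, the core of the ROR element AGGTCA and the CRE TGACGTCA, and capitals mark every match on either strand.
Per1, chr11:69098699-69098998, plus strand: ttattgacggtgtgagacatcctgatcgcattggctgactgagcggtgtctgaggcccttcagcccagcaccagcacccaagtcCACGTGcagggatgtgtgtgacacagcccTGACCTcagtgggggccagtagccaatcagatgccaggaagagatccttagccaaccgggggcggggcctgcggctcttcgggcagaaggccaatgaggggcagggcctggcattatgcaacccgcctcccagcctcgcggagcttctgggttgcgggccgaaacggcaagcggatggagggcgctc
Per3, chr4:151044616-151044915, minus strand: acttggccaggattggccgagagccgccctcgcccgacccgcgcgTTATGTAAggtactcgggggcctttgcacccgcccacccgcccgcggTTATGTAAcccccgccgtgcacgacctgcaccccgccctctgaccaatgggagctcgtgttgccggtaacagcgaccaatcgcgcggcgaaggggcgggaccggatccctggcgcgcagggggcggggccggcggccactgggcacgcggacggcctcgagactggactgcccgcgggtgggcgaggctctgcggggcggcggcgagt
Cry1, chr10:85185005-85185304, minus strand: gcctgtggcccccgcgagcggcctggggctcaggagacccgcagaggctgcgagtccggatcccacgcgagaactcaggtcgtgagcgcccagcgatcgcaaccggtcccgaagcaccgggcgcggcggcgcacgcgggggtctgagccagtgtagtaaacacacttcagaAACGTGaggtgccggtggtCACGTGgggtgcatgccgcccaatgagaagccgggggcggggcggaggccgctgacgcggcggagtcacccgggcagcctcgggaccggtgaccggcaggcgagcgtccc
Nr1d1, chr11:98775328-98775627, minus strand: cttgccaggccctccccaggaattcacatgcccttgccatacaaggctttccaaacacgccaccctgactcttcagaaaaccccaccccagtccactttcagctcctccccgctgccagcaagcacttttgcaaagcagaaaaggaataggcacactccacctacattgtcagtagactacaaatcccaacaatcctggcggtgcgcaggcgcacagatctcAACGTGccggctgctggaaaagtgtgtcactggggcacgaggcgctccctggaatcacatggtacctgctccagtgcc
Arntl, chr7:113207261-113207560, plus strand: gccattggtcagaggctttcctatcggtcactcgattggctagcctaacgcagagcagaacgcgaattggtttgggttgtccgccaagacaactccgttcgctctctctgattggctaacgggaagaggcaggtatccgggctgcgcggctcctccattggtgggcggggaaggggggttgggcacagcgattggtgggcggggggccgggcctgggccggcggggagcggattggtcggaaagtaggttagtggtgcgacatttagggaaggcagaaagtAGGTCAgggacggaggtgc
With the start counted as 0, CACGTG stood at -166 in Per1 and at -60 in Cry1, and occurred in 7.15% of the 32851 mouse windows. The variant CACGTT, read on the opposite strand as AACGTG, stood at -79 in Cry1, -166 in Cry2 and -28 in Nr1d1, against 4.68% of all windows. Per3 held TTATGTAA at -205 and -158, against 1.06% of windows with either D-box. AGGTCA stood at 31 bases after the start in Arntl and also occurred in a window each of Clock, Per1 and Nr1d2, against 16.3% of all windows. The CRE was in none of the 13 core windows and in 1.79% of all. These matches describe the letters in the windows only.

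The tissue and the labels were checked beside these results. All 8 smooth muscle markers were above background on every array, with a summed signal, in units of the 75th percentile, of 1102 and 1322 on K4 and K5 and 1903 and 1405 on W2 and W3. Of these, 0 were higher and 5 lower on both arrays labelled SR-A1-/-, beside 16.1% and 13.7% of all genes. The 8 adipocyte markers summed to 617 and 28.8 on K4 and K5 and 392 and 666 on W2 and W3, and 6 of 8 were above background on K5. With 1 marker higher and 0 lower on both arrays labelled SR-A1-/-, the groups mostly overlapped, and K5 stood apart from the other 3 arrays on this list. On the skeletal muscle list, all 8 above background on each array, the sums were 123 and 218 on K4 and K5 and 1068 and 313 on W2 and W3, with 1 marker higher and 4 lower. Macrophage markers summed to 220 and 168 on K4 and K5 and 59.9 and 281 on W2 and W3, with 5 of 8 higher on both arrays labelled SR-A1-/- and 0 lower. The difference in activators minus repressors was -3.19 without K5, the array with the lowest adipocyte sum. It was -4.55 without W2, the array with the highest skeletal muscle sum and the lowest macrophage sum. Single markers went against these sums for W2. Myh1 and Myh2 were lowest on W2, and Fcgr1 and Cd163 were lowest on W3. The part of these cell types in the clock differences was not tested. Endothelial markers summed to 19.9 and 19.3 on K4 and K5 and 18.7 and 15.6 on W2 and W3, with 3 of 6 higher and 1 lower. Fibroblast markers summed to 713 and 1112 on K4 and K5 and 1042 and 654 on W2 and W3, with 1 of 6 higher and 0 lower.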

How the data were processed

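Total RNA of 4 abdominal aorta samples was measured on 1-colour (Cy3) Agilent mouse arrays, 2 per group, all on 1 slide with 1 scan time. Per the file headers, Feature Extraction 12.0.3.1 made the processed signal, an intensity that was background-subtracted, detrended and given surrogates at the low end. The submitters' processing notes name version 10.7 and limma without a role. The table deposited by the authors is on a log2 scale, with nearly equal distributions in its 4 columns. Mean spot signal and local background are deposited as raw intensity.

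Processed signals were put on the log2 scale, outlier spots (74 to 102 per array) were left out, repeated spots were averaged, and the 75th percentile over the 56605 non-control probes of the array was subtracted. Between 57.6% and 62.6% of probes were well above background, and 0 spots were saturated. The 35102 probes called well above background on 2 or more arrays entered, and taking the brightest per name left 22497 genes. In R 4.3.3, limma 3.58.1 (lmFit, eBayes) was run over all of them, two-sided, with Benjamini-Hochberg adjustment, and tested on simulated data. The core clock genes, the further lists, the rule for named genes (per list, up to 3 with the widest difference among those with groups apart, and the 5 nearest to Arntl or its mirror image) and the alternative settings were chosen with earlier results of these data known. Raised values use, per array not above background, the higher of the lowest signal called above background and the probe's own signal. The number of arrays limits the precision. Plots were drawn with matplotlib 3.10.9. The values of 1 gene on the list of other transcription factors enter its counts and median and are not reported here.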

Additional observations from a re-analysis of the deposited data

How the results depend on the processing

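Over 12 alternatives (11 for Npas2, which left the test when all 4 arrays had to be above background), 113 of 119 differences of single core clock genes kept their direction. The 6 that did not were 3 of Per1, 2 of Cry1 and 1 of Nr1d1, the genes whose groups overlapped. Arntl ranged from -4.60 to -1.63 and Per2 from 1.21 to 1.54. Activators minus repressors was -1.96 with normexp background correction in place of -3.63, since that correction raises the dim readings of Arntl and Npas2. It ranged from -4.55 to -2.72 when each array was left out in turn, and could not be computed from genes above background on all 4 arrays, where Npas2 is missing. The count of genes past an adjusted p of 0.05 in limma was 8 with quantile normalisation, 7 with median scaling, 22 with normexp, 8 with no filter, 8 with the deposited values, 5 with an intensity trend and 2 with array weights. It ranged from 0 to 371 with an array left out, at 260 without W2 and 371 without W3, where the lone array was assumed to vary like the other group. Genes at least 2-fold apart numbered 409 with normexp, 2314 with no filter and 911 above background on all arrays, in place of 1439, and 2068 to 2885 with an array left out (2595 without K4, 2885 without W2, 2354 without W3). The cause of these changes in counts was not tested. No paired analysis was possible because the labels pair no array labelled SR-A1-/- with a wild-type array.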
